A study of Rattus norvegicus with 12 samples.

Results

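The contractile thin filament of cardiac muscle was described here through 7 genes, picked by symbol from the 32735 rows of the deposited table. They were the actins Actc1 and Acta1, the troponins Tnnt2, Tnni3, Tnni1 and Tnnc1, and the tropomyosin Tpm1, and each stood in the table once. Messenger RNA was measured in punches of left ventricle from 12 adult wild-type Groningen rats, 1 library per rat. RSD rats (6) were placed as intruders with a resident and defeated daily for 8 days, and CTR rats (6) were left unhandled. The labels name no genetic change or drug for either group. Groups are compared to ask whether the level or the isoform balance of thin filament transcripts differed between RSD and CTR rats. Because CTR rats were unhandled, defeat and the handling and move to a resident that came with it cannot be told apart.

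In striated muscle, actin monomers polymerise into the thin filament along which myosin heads pull. Tropomyosin lies along the actin strand and, at rest, covers the sites where myosin binds. The troponin complex sits on tropomyosin: troponin C binds calcium, troponin I inhibits the interaction with myosin, and troponin T ties the complex to tropomyosin. In rodents, the slow skeletal troponin I encoded by Tnni1 is the fetal form in the heart and is replaced by Tnni3 after birth, and the skeletal actin gene Acta1 is widely used as a marker of hypertrophic stress.

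Libraries held 2062798 (RSD 33) to 3731108 (RSD 34) reads, of which the mitochondrial genome took 53.6% ± 2.74 in controls and 54.8% ± 3.08 after defeat (SD, n = 6 each). The most abundant mitochondrial row took 19.9% ± 2.80 and 23.2% ± 2.32. Marker sums were high for cardiomyocytes and low for fast skeletal muscle. The 8 markers listed for ventricular cardiomyocytes and found in the table summed to 30655 to 35318 normalised CPM, and 7 fast skeletal muscle markers to 1.10 to 9.13 normalised CPM. Red blood cell markers varied widely, from 966 to 4609 normalised CPM in CTR and from 1131 to 10477 in RSD. The part of blood content in the member values was not tested. RSD 40 is labelled female although the series describes males. In it Eif2s3y and Kdm5d, both Y-linked, had 7.36 and 10.73 CPM, inside the range of the other 11 libraries (2.49 to 11.02 and 3.39 to 12.58 CPM). It was kept. Without it the log2 fold changes were −0.04 for Actc1, 0.11 for Acta1, −0.06 for Tnnt2, −0.18 for Tnni3, 0.01 for Tnnc1 and 0.00 for Tpm1, the Tnni1 difference was −0.30, and none of these passed. CPM are reads scaled to a common total per library, normalised CPM are CPM divided by a library's TMM factor, and log2 fold changes are RSD over CTR on the log2(normalised CPM + 1) scale.

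No thin filament gene was called different between RSD and CTR rats. Of the 7, 6 had enough reads to be tested by limma and Tnni1 had not, and 0 of the 6 passed a Benjamini-Hochberg adjusted p of 0.05. Over all 7511 genes tested, 2 passed (0.0266%) by limma, and edgeR and DESeq2 also called 2 each and none of the 6. At an unadjusted limma p under 0.05 the count was 0 of 6, against 8.36% of all genes (3.89% higher and 4.47% lower in RSD). In 0 of the 6 did the groups fail to overlap, against 0.293% of all genes. The tested log2 fold changes ran from −0.14 (Tnni3) to 0.15 (Acta1), 3 above and 3 below 0, with a median of 0.02 beside 0.00 for all tested genes. These are levels in whole punches, where fewer cardiomyocytes and less RNA per cardiomyocyte cannot be told apart.

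**Figure D1:**
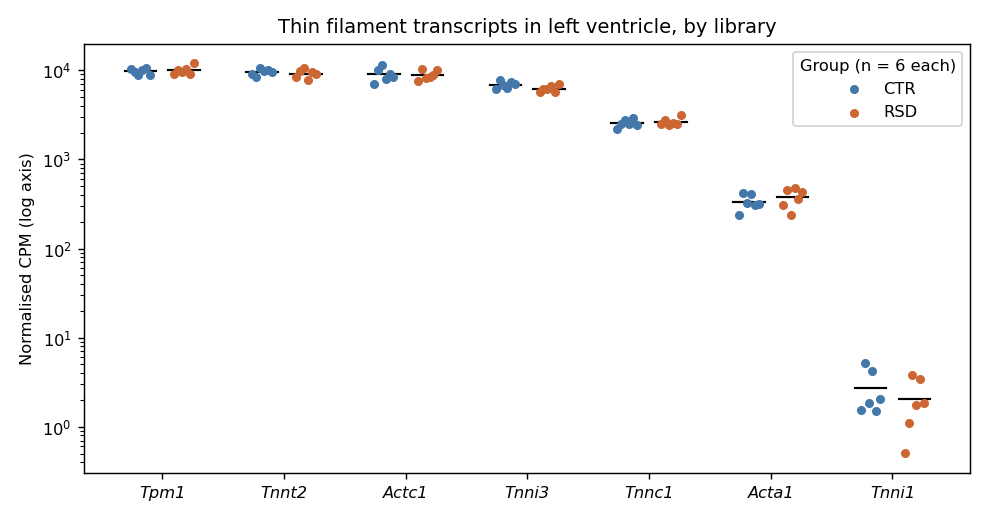
Normalised CPM (log axis) of each thin filament gene in every library, CTR in blue and RSD in orange, with black bars at the group means of 6 libraries. The genes span from about 9899 (Tpm1) to 2.41 (Tnni1) normalised CPM, and the groups overlap for each of them.

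The libraries were made from the 3' end of the message, where a transcript gives reads near its tail and not along its length, so levels of different genes were compared without division by length. On that scale Tpm1 averaged 9899 ± 857 normalised CPM over the 12 libraries (SD), Tnnt2 9372 ± 841 and Actc1 8930 ± 1299. The order of these 3 was not fixed. Tpm1 exceeded Tnnt2 in 8 of 12 libraries, and Tnnt2 exceeded Actc1 in 7 of 12, so neighbours differed by less than their spread. The lower ranks kept 1 order in all 12 libraries, with Tnni3 at 6565 ± 652, Tnnc1 at 2598 ± 265, Acta1 at 358 ± 81.4 and Tnni1 at 2.41 ± 1.43. How fully 3' end reads are assigned to each gene was not tested, so these are levels as counted. Among nuclear rows, Tpm1 ranked 3, Tnnt2 4, Actc1 5 and Tnni3 7 by mean CPM, and together the 7 genes took 8.33% ± 0.346 of nuclear reads in controls and 8.18% ± 0.623 after defeat (SD, n = 6).

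Actc1 (ENSRNOG00000008536.4), the alpha actin that predominates in the adult heart, ranged from 7008 (CTR 22) through a median of 8767 to 11356 (CTR 24) normalised CPM in CTR. In RSD it ranged from 7565 (RSD 33) through 8566 to 10437 (RSD 34). Both the lowest and the highest of the 12 libraries were controls, so the RSD values lay inside the CTR range. Group means were 8982 ± 1569 and 8879 ± 1115 (SD, n = 6), a log2 fold change of −0.01 (limma adjusted p = 0.993, SE 0.12). The 95% interval ran from 0.84-fold to 1.18-fold. Its sign turned positive in 6 of the 12 fits that left out 1 library, where values ran from −0.08 to 0.06.

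Acta1 (ENSRNOG00000017786.6), the skeletal alpha actin, ranged from 239 (CTR 22) through a median of 324 to 421 (CTR 23) normalised CPM in CTR. In RSD it ranged from 239 (RSD 35) through 395 to 482 (RSD 38). The top 3 libraries were RSD 38, RSD 34 and RSD 40, but RSD 35 was level with the lowest control. Means were 337 ± 68.3 and 379 ± 94.2, a log2 fold change of 0.15 (limma adjusted p = 0.814, SE 0.14, 95% interval −0.14 to 0.45), with 4 of 6 RSD libraries above the CTR mean. The interval corresponds to 0.905-fold to 1.36-fold. Leaving out 1 library gave 0.06 (without CTR 22) to 0.28 (without RSD 35), with 0.08 and 0.09 without RSD 38 and RSD 34. It was 0.45 with the top mitochondrial row's share as covariate and 0.34 with 1 surrogate variable (limma adjusted p = 0.998 and 0.95). The atrial markers, summed, ran from 94.1 to 222 normalised CPM in CTR and from 61.9 to 442 in RSD. Most of this sum was Nppa, the natriuretic peptide that the stressed ventricle also makes, which was highest in RSD 38 (372). Nppa averaged 132 of a mean sum of 159 in CTR and 176 of 224 in RSD. All 4 tested genes of the atrial list had log2 fold changes above 0 (median 0.52), and 0 passed over all genes. They were Myl1 at 1.57 (limma adjusted p = 0.24), Myl4 at 0.52, Myl7 at 0.51 and Nppa at 0.20. Myl1 averaged only 1.48 normalised CPM in CTR and 6.22 in RSD. It is also a fast skeletal muscle light chain, and was not in the fast skeletal sum above. The part of the atrial list genes in the Acta1 values was not tested.

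The actins are near-identical paralogs, so the split of reads between Actc1 and Acta1 is uncertain to the extent that reads fell in sequence the genes share. Acta1 made up 3.66% ± 0.744 of the reads of both actins in CTR and 4.08% ± 0.842 in RSD (SD, n = 6). Across libraries the Acta1 share ran from 2.81% (CTR 24) to 5.48% (RSD 38). The half-width of the exact 95% binomial interval of a single library was at most 0.307 points. With 1 library per rat, differences between rats and between library preparations cannot be told apart. Between groups the mean log2 ratio of Acta1 to Actc1 was −4.74 in CTR and −4.58 in RSD. The difference was 0.16 (95% interval −0.23 to 0.54, exact two-sided permutation p = 0.374, adjusted p = 0.658 over 6 ratios), and 5 of 6 RSD libraries lay above the CTR mean. Leaving out 1 library gave 0.07 (without RSD 38) to 0.26 (without RSD 35), with 0.09 without CTR 24 and 0.25 without CTR 25.

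**Figure D2:**
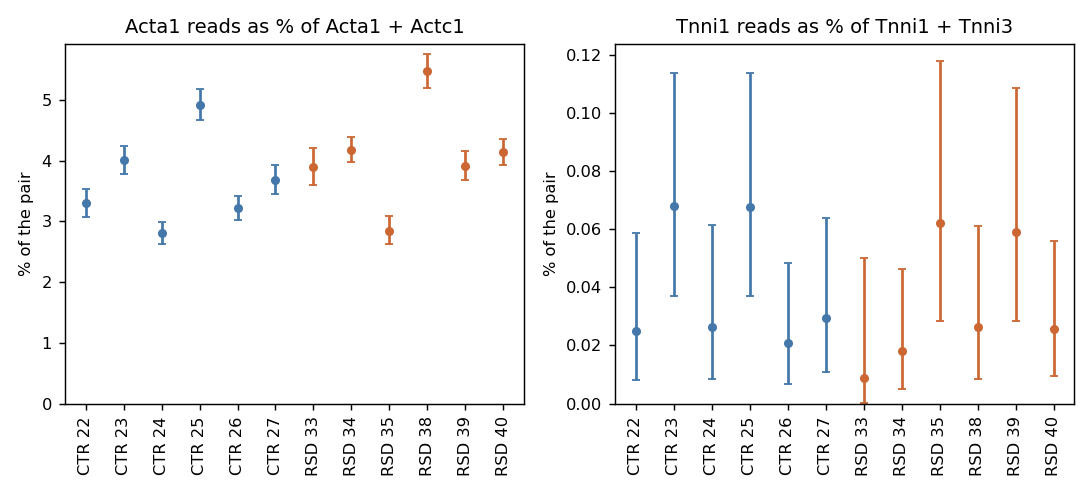
Left, Acta1 as a percent of Acta1 plus Actc1 reads in each library, and right, Tnni1 as a percent of Tnni1 plus Tnni3 reads, with exact 95% binomial intervals for counting error, CTR in blue and RSD in orange. The Acta1 share runs from 2.81% in CTR 24 to 5.48% in RSD 38, and the Tnni1 share stays under 0.07% in every library.

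The start regions of both actin genes are shown because these paralogs encode near-identical proteins yet differed 24.9-fold in mean level. Both sequences are RefSeq windows of the rat build GRCr8, read 5′ to 3′ on the gene's strand, from 250 bases before to 50 after the annotated start. The Actc1 window is chr3:121271778-121272077 and the Acta1 window chr19:68784145-68784444, both on the minus strand. Capitals mark CArG boxes (CC, then 6 letters that are each A or T, then GG), the element bound by serum response factor, a transcription factor of muscle genes, either exact or with 1 C or G among the 6 middle letters.
Actc1: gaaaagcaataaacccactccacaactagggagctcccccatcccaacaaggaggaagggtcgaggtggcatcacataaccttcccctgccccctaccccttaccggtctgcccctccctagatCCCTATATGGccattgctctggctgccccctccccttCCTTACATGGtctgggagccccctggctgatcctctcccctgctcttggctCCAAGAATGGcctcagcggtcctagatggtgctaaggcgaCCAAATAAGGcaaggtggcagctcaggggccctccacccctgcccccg
Acta1: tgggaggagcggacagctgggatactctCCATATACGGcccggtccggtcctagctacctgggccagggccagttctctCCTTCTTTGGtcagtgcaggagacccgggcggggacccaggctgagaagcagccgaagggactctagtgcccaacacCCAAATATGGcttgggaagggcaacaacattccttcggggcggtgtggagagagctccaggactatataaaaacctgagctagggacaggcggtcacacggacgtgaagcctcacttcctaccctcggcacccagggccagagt
Actc1 held 1 exact CArG box and 3 with 1 such change, and Acta1 held 1 and 2. The exact box began at base 3 after the annotated start in Actc1 and 94 bases before it in Acta1. Of 33469 windows of the same length in the RefSeq table, 1.64% held an exact CArG box and 8.10% the altered form, searched on both strands. A TATAAA match stood 29 bases before the start of Acta1, a motif held by 14.2% of windows, and not in the Actc1 window. Whether the annotated starts are those used in the ventricle was not tested, so the windows may not cover matching parts of the promoters. Windows were found for 6 of the 7 genes, 7 windows in all, and Tnnc1 had no entry. The windows of Tnnt2, Tnni3, Tnni1 and Tpm1 held neither form of the CArG box. CATTCC, the core bound by TEAD factors, was in the windows of Acta1, Tnnt2 and Tpm1 (14.2% of all windows), and AGATAA, a letter string bound by GATA factors, in those of Tnni3 and Tnnt2 (11.6%). The MEF2 site was in 0 of 7 windows and in 3.29% of all. A match describes letters in these windows and was not tested as a binding site.

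Tnni3 (ENSRNOG00000018250.5), the adult cardiac troponin I whose phosphorylation by protein kinase A speeds relaxation, ranged from 6154 (CTR 22) through a median of 6947 to 7710 (CTR 23) normalised CPM in CTR. In RSD it ranged from 5641 (RSD 33) through 6117 to 7110 (RSD 40). Of 6 RSD libraries, 4 lay below the lowest control, while RSD 38 and RSD 40 lay inside the CTR range. Means were 6893 ± 595 and 6236 ± 567 (SD, n = 6), a log2 fold change of −0.14 (limma adjusted p = 0.726, SE 0.10, 95% interval −0.35 to 0.06). The value ran from −0.18 to −0.11 over the 12 fits without 1 library. It was −0.05 with the mitochondrial covariate and −0.06 with 1 surrogate variable.

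Tnni1 (ENSRNOG00000009073.8), the slow skeletal and fetal troponin I, was close to the limit of these libraries. It had 5, 14, 5, 14, 5 and 6 reads in CTR 22 to CTR 27, and 1, 4, 9, 5, 10 and 6 reads in RSD 33, 34, 35, 38, 39 and 40. Every library held at least 1 read, and 3 of 12 reached 10. The groups overlapped in part: in normalised CPM, RSD 33 and RSD 34 lay below the lowest control, and CTR 23 and CTR 25 above the highest RSD library. Means were 2.74 ± 1.60 and 2.07 ± 1.29 normalised CPM, a log2 difference of −0.30 (exact two-sided permutation p = 0.405, n = 6 each, over every split of the 12 libraries). It was −0.18 with a pseudocount of 3 in place of 1, and leaving out 1 library gave −0.45 (without RSD 35) to −0.12 (without RSD 33), with −0.13 and −0.18 without CTR 23 and CTR 25. Its coefficient of variation was 58.5% in CTR and 62.5% in RSD, and counting error alone at a mean of 7 reads gives 37.8%. Tnni1 made up 0.0396% ± 0.0221 of the reads of both troponin I genes in CTR and 0.0334% ± 0.0221 in RSD. The lowest share was 0.00889% in RSD 33 (exact 95% binomial interval 0.000227 to 0.05%) and the highest 0.068% in CTR 23 (0.0372 to 0.114%). The mean log2 ratio of Tnni1 to Tnni3 differed by −0.14 between groups (95% interval −0.92 to 0.60, exact permutation p = 0.608, adjusted p = 0.658 over 6 ratios). It was −0.22 with a pseudocount of 0.5 and −0.01 with 3. Leaving out 1 library gave −0.31 (without RSD 35) to 0.00 (without RSD 33), and −0.01 without either CTR 23 or CTR 25.

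Tnnt2 (ENSRNOG00000033734.6), the cardiac troponin T that anchors the complex to tropomyosin, ranged from 8438 (CTR 23) through a median of 9666 to 10497 (CTR 24) normalised CPM in CTR. In RSD it ranged from 7768 (RSD 38) through 9289 to 10520 (RSD 35). The lowest and the highest of the 12 libraries were both RSD, so the CTR values lay inside the RSD range. Means were 9557 ± 731 and 9187 ± 970, a log2 fold change of −0.06 (limma adjusted p = 0.907, SE 0.10, 95% interval −0.27 to 0.15). Leaving out 1 library gave −0.10 (without RSD 35 or CTR 23) to −0.01 (without RSD 38).

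Tnnc1 (ENSRNOG00000018943.6), the troponin C that binds the activating calcium in heart and slow muscle, ranged from 2176 (CTR 22) through a median of 2481 to 2929 (CTR 26) normalised CPM in CTR. In RSD it ranged from 2442 (RSD 35) through 2531 to 3157 (RSD 40). RSD 40 was the highest of the 12 libraries, and the RSD minimum was above 2 of the controls. Means were 2542 ± 267 and 2653 ± 276, a log2 fold change of 0.06 (limma adjusted p = 0.894, SE 0.10, 95% interval −0.14 to 0.26). With 1 library left out it was 0.01 (without RSD 40) to 0.10 (without CTR 26), with 0.02 without CTR 22.

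Tpm1 (ENSRNOG00000018184.8), which encodes alpha tropomyosin, ranged from 8938 (CTR 27) through a median of 9808 to 10515 (CTR 26) normalised CPM in CTR. In RSD it ranged from 9172 (RSD 33) through 9955 to 11936 (RSD 40). RSD 40 alone stood above the highest control. Means were 9715 ± 695 and 10082 ± 1025, a log2 fold change of 0.05 (limma adjusted p = 0.923, SE 0.10, 95% interval −0.16 to 0.26). It ran from 0.00 (without RSD 40) to 0.08 (without RSD 33). Tpm1 is spliced into several forms, which counts per gene do not separate.

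**Figure D3:**
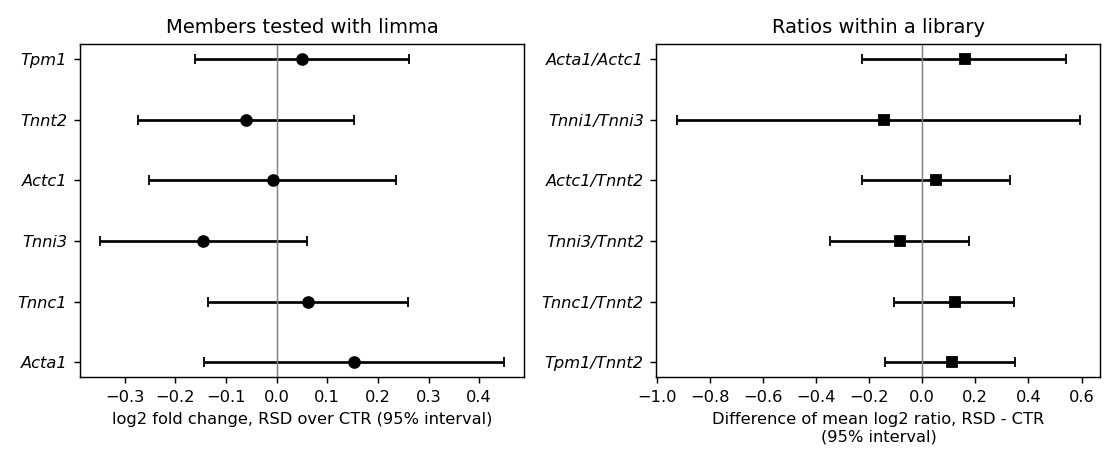
Left, log2 fold change (RSD over CTR) of the 6 tested genes with limma 95% intervals, and right, the difference between groups in mean log2 ratio of pairs within a library, with 95% intervals from exact permutation. Every interval spans 0, and the widest is that of Tnni1 to Tnni3.

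Ratios between members of the complex within a library do not depend on how libraries are scaled to each other. The mean ratio of Tnnc1 to Tnnt2 reads was 0.266 ± 0.0225 in CTR and 0.292 ± 0.0431 in RSD, and 4 of 6 RSD libraries lay above the CTR mean. On the log2 scale the difference was 0.12 (95% interval −0.11 to 0.35, exact permutation p = 0.26, adjusted p = 0.658 over 6 ratios). Tpm1 to Tnnt2 read 1.02 ± 0.11 and 1.11 ± 0.172, with RSD 38 (1.32) and RSD 40 (1.31) highest. That difference was 0.11 (−0.14 to 0.35, exact permutation p = 0.342). Tnni3 to Tnnt2 read 0.726 ± 0.0991 and 0.687 ± 0.111, a log2 difference of −0.08 (−0.35 to 0.18, exact permutation p = 0.481). Actc1 to Tnnt2 read 0.942 ± 0.164 and 0.972 ± 0.128, a log2 difference of 0.05 (−0.23 to 0.33, exact permutation p = 0.658). Of the 6 ratios, 0 passed at an unadjusted p of 0.05, and the adjusted p was 0.658 for each. The groups overlapped in every ratio. Without RSD 40 the differences were 0.07 for Tnnc1, 0.06 for Tpm1, −0.13 for Tnni3 and 0.01 for Actc1, each to Tnnt2. Without RSD 38 they were 0.08, 0.06, −0.15 and 0.02, and without RSD 35 0.19, 0.16, −0.04 and 0.12.

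The spread between libraries was described by the coefficient of variation, which holds rat and library preparation together. The coefficient of variation of Tpm1 was 7.16% in CTR and 10.2% in RSD, where counting alone gives 0.585%. For Actc1 it was 17.5% and 12.6%, and for Acta1 20.3% and 24.9%, where counting gives 3.07%. Over 54 nuclear genes with a mean of at least 1000 normalised CPM, the median was 10.8% in CTR and 9.49% in RSD, and Actc1 lay above it in both groups. Tpm1 and Tnnt2 (7.65% in CTR and 10.6% in RSD) lay below it in CTR and above it in RSD, and Tnni3 (8.63% and 9.09%) lay below it in both.

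Members were then compared with each other across rats, after group means were removed, in 21 pairs. Pearson r was above 0 in 16 pairs, with a median of 0.23. The highest was Actc1 with Tnnc1 (r = 0.74, Spearman rho = 0.78, permutation p = 0.0103 and 0.00609, adjusted p = 0.217 and 0.128 over 21 pairs, n = 12). Without CTR 22 and CTR 24, the extremes in Actc1, r was 0.63. Next came Tnni3 with Tnnc1 (r = 0.66, rho = 0.70, permutation p = 0.0282 and 0.0198, adjusted p = 0.296 and 0.208), with r = 0.63 without CTR 23 and RSD 40. The lowest was Acta1 with Tnnt2 (r = −0.40, rho = −0.37, permutation p = 0.24 and 0.272, adjusted p = 0.56 and 0.61), with r = −0.33 without CTR 22 and RSD 35. Tnnt2 and Tnni3, neighbours in the troponin complex, gave r = −0.23 (rho = −0.17, permutation p = 0.495 and 0.624, adjusted p = 0.799 and 0.89), which turned to 0.28 without CTR 23 and RSD 38. Of the 21 pairs 0 passed after adjustment. Without CTR 26 1 did, Actc1 with Tnnc1 (r = 0.81, adjusted p = 0.0451). The libraries share scaling and depth, whose part in these correlations was not tested.

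**Figure D4:**
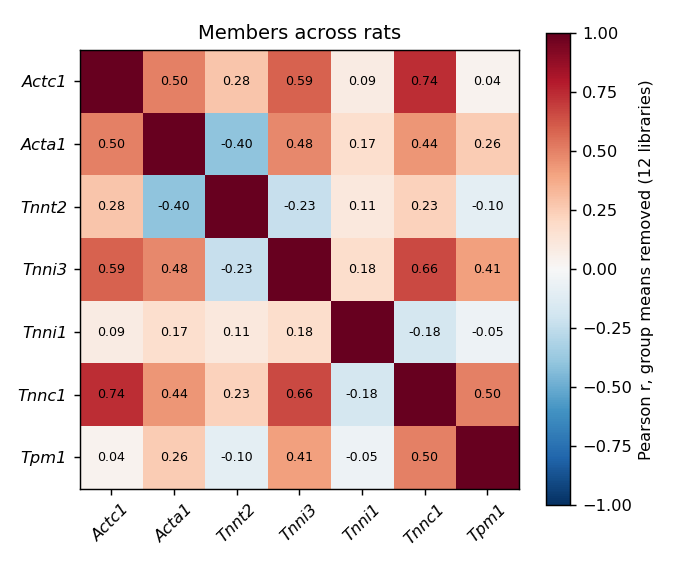
Pearson r between the log2 levels of each pair of genes over 12 libraries after group means were removed, red above 0 and blue below. Actc1, Tnni3 and Tnnc1 give r of 0.59 to 0.74 with each other, and Tnnt2 gives r of −0.40 with Acta1.

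Among 3047 other tested genes with at least 20 normalised CPM, those whose log2 levels followed a member most closely over the 12 libraries were listed as a description. Group means were not removed here. The r that the best of 3047 genes reaches by chance over 12 libraries was not computed, so these values are no evidence of shared control. For Actc1 they were Ubl5 (Pearson r = 0.89), Cpt1b, the muscle enzyme that lets fatty acids into mitochondria (0.89), and Crip2 (0.88). For Acta1 they were Ctps1 (0.85), Epn2 (0.82) and the glycolytic enzyme Pgk1 (0.79). Txlnb (0.88), Akr1a1 (0.86) and the proteasome activator subunit Psme1 (0.85) followed Tnnt2. Laptm4a (0.88), Pla2g16 (0.88) and Pigq (0.87) followed Tnni3. Tnnc1 was followed by Ppp1r3c, which targets a phosphatase to glycogen (0.86), by Srl, the sarcoplasmic reticulum protein sarcalumenin (0.85), and by Nme2 (0.84). Tpm1 was followed by Naa35 (0.88), AABR07002683.1 (0.85) and Pxmp2 (0.85), and Tnni1 by Vmp1 (0.82), Kcnj5 (0.82) and Arl8b (0.79).

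Of 11 paralogs of the thin filament genes, 6 were tested and 0 passed over all genes. At an unadjusted limma p under 0.05 there was 1 of 6, against 8.36% of all genes, and it was Tpm3. This tropomyosin of slow muscle and non-muscle cells averaged 22.8 ± 4.42 normalised CPM in controls and 17.3 ± 4.28 after defeat (SD, n = 6), a log2 fold change of −0.40 (limma adjusted p = 0.569, SE 0.18). The median of the 6 was 0.14 beside 0.00 for all tested genes, with 4 above 0 and 2 below. Acta2, smooth muscle actin, measured 25.4 ± 8.57 and 18.6 ± 6.79 normalised CPM (log2 fold change −0.44, limma adjusted p = 0.61). The smooth muscle and pericyte markers, Acta2 among them, had 5 of 6 tested members below 0, and their sum ran from 89.9 to 143 normalised CPM in CTR and from 70.9 to 114 in RSD. The part of vessel content in the Acta2 value was not tested. Actb, a cytoplasmic actin, had a log2 fold change of 0.12 (limma adjusted p = 0.859), and Actg1 was listed at 0 reads in all 12 libraries. Since every cell uses Actg1, this is given only as a listed value. Tpm2 (16.1 ± 5.87 and 17.8 ± 6.02 normalised CPM) and Tpm4 (12.9 ± 5.29 and 15.5 ± 7.33) were far below Tpm1. The fast skeletal forms Tnni2 and Tnnc2 had 5 reads each in all, and Tnnt3 101.

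Tnni3 and Tnnt2 each sit near another troponin gene in the rat genome, and the genes of these pairs were counted at very different levels. In the RefSeq gene order of GRCr8, Tnnt1, the slow skeletal troponin T, is the next gene to Tnni3, and 1 gene is listed between Tnnt2 and Tnni1. Tnnt1 averaged 8.54 ± 6.06 normalised CPM in controls and 10.8 ± 7.20 after defeat (log2 fold change 0.35, limma adjusted p = 0.827, 95% interval −0.39 to 1.09), with RSD 40 highest at 22.0. The mean of Tnni3 was 679-fold that of Tnnt1, and the mean of Tnnt2 was 3897-fold that of Tnni1, each in the same order in 12 of 12 libraries.

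Of 26 genes that set thin filament length, cap its ends or assist assembly, 24 stood in the table, 22 were tested and 0 passed over all genes. Lmod2 and Pfn2 were not found by symbol, so nothing is said of them. Hspb7, a small heat shock protein of the heart, had the smallest p, at 448 ± 57.3 and 558 ± 108 normalised CPM (log2 fold change 0.30, limma adjusted p = 0.475, SE 0.11). Nebl, which encodes the Z-disc and thin filament protein nebulette, measured 578 ± 63.3 and 671 ± 98.5 (log2 fold change 0.21, limma adjusted p = 0.593). Klhl41, which protects nebulin in skeletal muscle, and Lmod3, a leiomodin that lengthens filaments, had 0.25 and −0.22 (limma adjusted p = 0.645 and 0.664). Hspb7 and Nebl were the 2 of 22 past an unadjusted limma p of 0.05, against 8.36% of all genes. The median of the 22 was −0.05, with 10 above 0 and 12 below.

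Of 18 symbols listed for transcription factors of sarcomere genes, 15 stood in the table, 13 were tested and 0 passed over all genes. Srf, the gene of serum response factor, averaged 29.5 ± 8.14 normalised CPM in controls and 19.7 ± 5.87 after defeat (log2 fold change −0.56, limma adjusted p = 0.458, SE 0.20). Its coactivator Myocd, myocardin, averaged 12.03 ± 2.95 and 15.96 ± 3.23 (log2 fold change 0.39, limma adjusted p = 0.618). The groups overlapped for both. Tbx5 and Nkx2-5, cardiac factors, had 0.27 and 0.31 (limma adjusted p = 0.645 and 0.655). The median of the 13 was 0.04, with 8 above 0. Srf was the 1 of 13 past an unadjusted limma p of 0.05, against 8.36% of all genes. Actc1 and Acta1, the members whose windows held CArG boxes, had log2 fold changes of −0.01 and 0.15. A link between their levels and that of Srf was not tested.

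Of 21 kinases and phosphatases acting on troponin or tropomyosin, 16 were tested and 0 passed over all genes. Prkce, a protein kinase C that can phosphorylate cardiac troponin, averaged 10.1 ± 2.43 normalised CPM in controls and 5.83 ± 2.41 after defeat (log2 fold change −0.76, limma adjusted p = 0.433). Ppp1cb, a catalytic subunit of protein phosphatase 1, measured 49.0 ± 14.5 and 36.2 ± 6.97 (log2 fold change −0.40, limma adjusted p = 0.517). These were the 2 of 16 past an unadjusted limma p of 0.05, against 8.36% of all genes. Dapk3 and Prkar2a had 0.29 and 0.32 (limma adjusted p = 0.681 and 0.702), and the median of the 16 was 0.02.

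**Figure D5:**
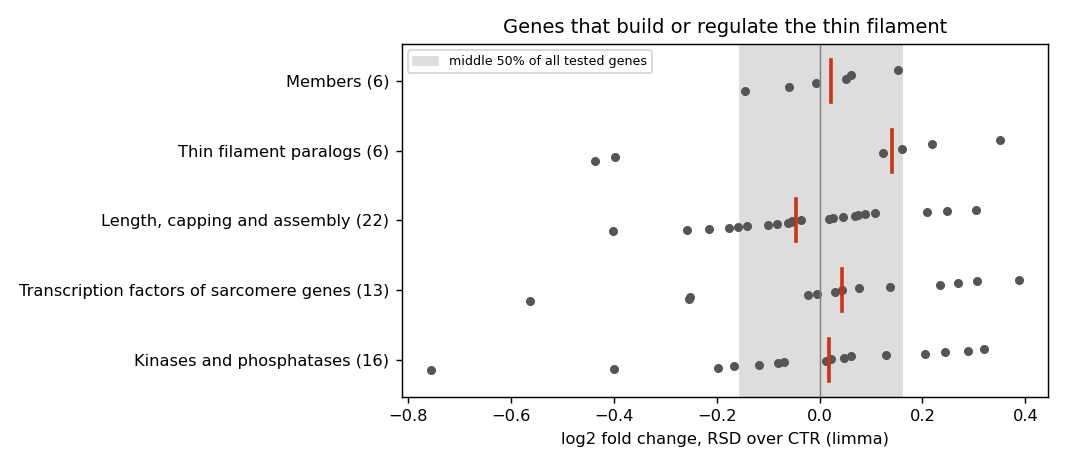
Log2 fold change (RSD over CTR) of every tested gene in each list, 1 point per gene and a red bar at the median, with the number tested in brackets. The grey band holds the middle 50% of all tested genes (−0.15 to 0.16), and the 6 thin filament genes lie inside it.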

How the data were processed

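QuantSeq 3' end libraries were made from 100 ng of total RNA per rat, per the labels' protocols. The deposited table holds CPM (reads scaled to a common total in each library) by Ensembl gene ID and symbol, and its column names mark the reads as unique. The submitters' processing notes list build rn6, HTSeq 0.9.1, STAR 2.6.0a, bcl2fastq and DESeq2 without roles, with the release of the gene models not given in the sources used here. Of 32735 rows, 23030 carry a mark for removal, which was not used.

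Low CPM values were whole multiples of 1 step, which gave whole reads (100% of values within 0.1 read in each library), with totals of 2062798 to 3731108. Genes were kept by filterByExpr (minimum count 10, 7511 genes). CPM were divided by TMM factors (0.914 to 1.12), and limma 3.58.1 was fitted to log2(CPM + 1) with a variance trend, two-sided, with Benjamini-Hochberg adjustment over all tested genes. Tnni1 did not pass the filter and was compared by an exact permutation test over every split of the libraries, as were 6 ratios of deposited CPM + 1. Intervals of ratios hold the shifts that this test did not reject at 0.05. Correlations used 100000 permutations within groups. Alternatives were edgeR 4.0.16, which called 2 genes on the recovered reads, DESeq2 1.42.0, limma-voom, sva 3.50.0 (R 4.3.3), other scalings, pseudocounts and filters, a mitochondrial covariate, and leaving out each library. The limma fit was tested on simulated data.

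Groups came from the sample titles. Nothing says that libraries were made in batches, and the groups share no replicate numbers. Binomial intervals cover counting error alone. Genes named beside the members were the up to 4 tested genes of each list with the smallest p and the 3 closest to each member; Tpm2 and Tpm4, Actg1 and the untested fast skeletal forms were added after their values were seen. The members and lists were chosen with earlier results of these data known. Promoter windows are from RefSeq (GRCr8). The deposited table is in another build and no coordinates were carried between them.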

Additional observations from a re-analysis of the deposited data

Results flagged for a closer look

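The log2 ratio of Tnni3 to Tnnt2 was highest in CTR 23, at −0.13 beside −0.45 in the next control. This gap was 0.627 of the range of the 6 controls, just above the critical value for a group of that size. CTR 23 held the highest Tnni3 and the lowest Tnnt2 level of the controls. Without it, the difference between groups in this ratio was −0.02 in place of −0.08, and neither passed the exact permutation test. It was the 1 such library in 28 checks, for which chance gives about 1.4.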

How the results depend on the processing

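No paired analysis was possible because the groups share no replicate numbers. Of 246 recomputed values of members and ratios, 234 kept their direction, 12 turned and 0 passed the test. The lowest adjusted p of a member in any alternative was 0.457 (Tnni3 without CTR 22). Actc1 turned positive with at least 50 reads in 6 libraries (0.0037), limma-voom (0.0068), 1 surrogate variable (0.18) and the mitochondrial covariate (0.15), and leaving out 1 library gave −0.076 to 0.063. The cause was not tested. Leaving out 1 library gave −0.00041 to 0.12 for the ratio of Actc1 to Tnnt2 and −0.31 to 0.0041 for Tnni1 to Tnni3. Over all genes, 0 to 41 passed by limma without 1 library, the 41 without CTR 22 (994 at an unadjusted p under 0.05). In 5 of these fits 0 passed, and in those 5 the count at an unadjusted p under 0.05 was 449 to 687. With no filter, 1 surrogate variable or the mitochondrial covariate 0 passed, with 953, 368 and 276 at an unadjusted p under 0.05, and 1 passed with at least 50 reads in 6 libraries. Correlated pairs numbered 0 to 1 without 1 library. Tnni1 rests on 1 to 14 reads a library, which limits any statement about it.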
